A study of Saccharomyces cerevisiae with 4 samples.

Results

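The 10 genes described here are mating-type specific genes of Saccharomyces cerevisiae named by the array's gene annotation. They are 4 alpha-cell genes, MF(ALPHA)1, MF(ALPHA)2, STE3 and SAG1, and 6 a-cell genes, MFA1, MFA2, STE2, STE6, BAR1 and AGA2. AFB1 and ASG7, further such genes that the annotation names, are given below. The 10 were chosen by gene symbol, with earlier results of these data known. Each has 1 spot among the 6084 spots of each array, which stand for 6051 genes and unnamed spots. Transcripts were measured on 4 arrays, 2 from the wild type, labelled HSF1 wt, and 2 from the mutant, labelled hsf1-R206S/F256S. All cells had been at 39 °C for 15 min, no unheated cells were analysed here, and HSF1 encodes the essential heat shock transcription factor. The labels name no mating type, ploidy, strain background or second allele for either strain, and do not state if each replicate had a culture of its own, so every test below reflects array-to-array spread that may be technical.

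Haploid yeast cells are of mating type a or alpha, and each type transcribes a small set of genes for finding and joining a cell of the other type. In alpha cells the alpha1 protein, together with Mcm1, switches on the alpha-cell genes, while the alpha2 protein, with Mcm1 and the Tup1-Cyc8 corepressor, switches off the a-cell genes. a cells lack both alpha proteins, so Mcm1 switches on the a-cell genes there. Each type secretes a pheromone and carries a receptor for the pheromone of the other, and in a/alpha diploids both sets and a further group of haploid genes are off.

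The deposited values are spot intensities in arbitrary units on a linear scale. Some are negative, so a background appears to have been subtracted, though the labels name no method. Background limits, set at 3 times the noise SD of each array, came to 8.95 and 15.6 in replicates 1 and 2 of the wild type, and to 8.39 and 11.7 in those of the mutant. The share of spots above the limit ran from 24.9% to 40.6% on the wild-type arrays and from 41.5% to 61.2% on the mutant arrays. The deposited medians were also higher on the mutant arrays, at 8.49 and 11.9 against 5.86 and 6.28. The arrays were therefore quantile-normalized before strains were compared, and the part of these array differences in the results below was not tested. Intensities of different spots cannot be set against each other, so each gene is compared only with itself. In a culture, fewer cells of a type and less RNA per cell cannot be told apart. The deposited intensity of HSF1 itself was 33.2 and -7.56 in the wild type and 462 and 429 in the mutant. The labels do not say how the allele is carried, and replacing 2 amino acids predicts no transcript level, so this value does not check the labels. The size of the HSF1 difference rested on the wild-type arrays, at 6.52 (log2) over all arrays, but 9.03 and 3.67 when wild-type replicate 1 or 2 was left out.

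All 4 alpha-cell genes had a higher level in the mutant than in the wild type, and for each of them both mutant arrays lay above both wild-type arrays, as they did for 21.2% of all genes. By contrast, the 6 a-cell genes lay at or near background in both strains. No gene of the array (0%) passed limma's adjusted threshold of 0.05, so these are differences in level and in overlap, without a significant call. All 4 alpha-cell genes met a fold rule that needs at least a 2-fold difference and no overlap between the strains. Of all genes, 13.5% met it with the mutant higher and 12.8% with the mutant lower. The 4 were chosen with earlier results of these data known, so these shares are no test of the set. The median log2 difference, mutant minus wild type, was 2.13 over the 4 alpha-cell genes, 0.48 over the 6 a-cell genes and 0.01 over all genes. AFB1, an alpha-cell gene outside the 4, differed by -0.65 (log2), with overlapping strains.

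MF(ALPHA)1 (YPL187W) encodes the major precursor of alpha-factor, the peptide pheromone that alpha cells secrete. Its deposited intensity was 10.001 and 7.76 in replicates 1 and 2 of the wild type and 44.8 and 32.3 in those of the mutant. Both mutant values stood well clear of background, while of the wild-type values only that of replicate 1 passed its limit, and narrowly. After normalization MF(ALPHA)1 stood at 11.5 ± 1.43 in the wild type and 32.7 ± 4.50 in the mutant (SD, n = 2 each), a 2.68-fold difference. The log2 difference was 1.42 (95% interval 0.29 to 2.55), with a limma adjusted p of 0.355.

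MF(ALPHA)2 (YGL089C) encodes the minor precursor of the same pheromone. Its deposited intensity was 18.5 and 1.99 in the wild type and 64.1 and 105 in the mutant. The strains did not overlap, but the wild-type arrays differed from each other so far that only replicate 1 was above background. Normalized intensities were 13.1 ± 13.1 in the wild type and 77.8 ± 34.6 in the mutant (SD, n = 2 each). The log2 difference of MF(ALPHA)2 was 2.80 (95% interval -0.08 to 5.68), with a limma adjusted p of 0.437, and leaving out 1 array gave 3.87 (wild-type replicate 1), 1.62 (wild-type replicate 2) or 3.46 (mutant replicate 1). MF(ALPHA)1 and MF(ALPHA)2 are related in sequence, and the files do not show how far their spots share signal.

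STE3 (YKL178C) encodes the receptor on alpha cells for a-factor, the pheromone of a cells. Its deposited intensity was 8.67 and 3.74 in the wild type and 29.1 and 28.4 in the mutant. Neither wild-type array was above background, although replicate 1 came close to its limit, and the mutant arrays were nearly equal. Normalized intensities of STE3 were 8.42 ± 3.76 and 23.9 ± 2.65 (SD, n = 2 each). The mutant mean was 1.51-fold higher when each wild-type array was taken at the higher of its limit and its own value. That figure leaves out the spread of the mutant arrays. The fitted log2 difference was 1.45 (95% interval 0.03 to 2.87), with a limma adjusted p of 0.416.

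SAG1 (YJR004C) encodes alpha-agglutinin, the cell wall adhesin with which alpha cells bind a cells. Its deposited intensity was 1.16 and -1.01 in the wild type and 34.98 and 42.0 in the mutant. The wild-type values lay around 0 and both mutant values above the background limit, and the limma adjusted p was the smallest among the 10 genes. The mutant mean was 1.99-fold higher with the wild-type arrays taken as for STE3, again without the spread of the mutant arrays. The fitted log2 difference of 3.71 (95% interval 2.42 to 4.998, limma adjusted p of 0.277) depends on the offset added before the logarithm, falling to 2.57 with a larger offset. It was 4.38 without mutant replicate 1. Without normalization between arrays the log2 differences of MF(ALPHA)1, MF(ALPHA)2, STE3 and SAG1 were 1.99, 3.43, 2.13 and 4.68, while the median of all genes moved to 0.63 and 28.1% of all genes met the fold rule upward.

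**Figure D1:**
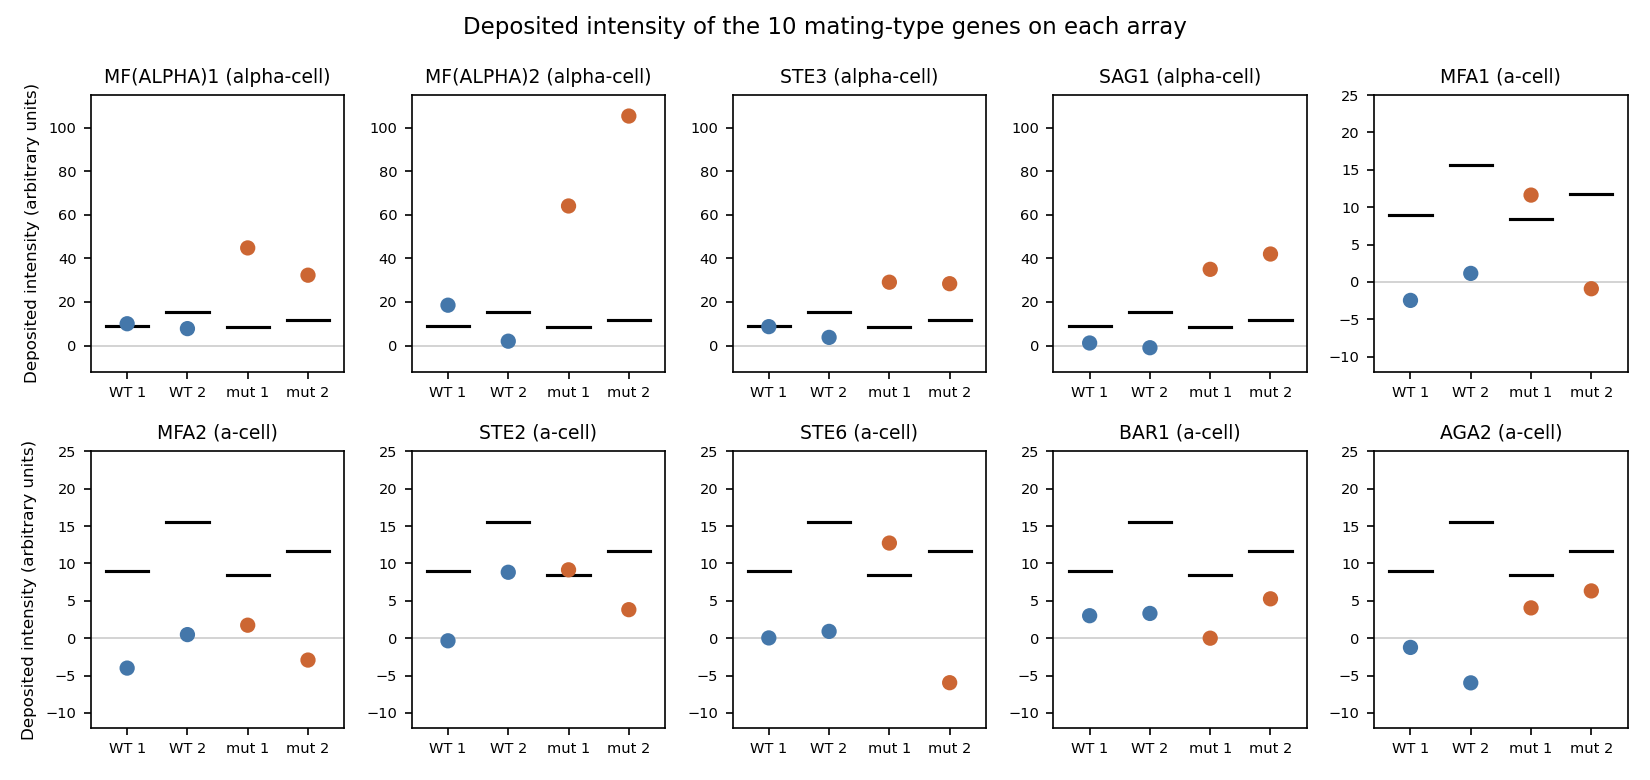
Deposited spot intensity (arbitrary units, linear y axis; 1 scale for the alpha-cell genes and another for the a-cell genes) of each gene on wild-type arrays 1 and 2 (WT, blue points) and mutant arrays 1 and 2 (mut, orange points), with each array's background limit as a black bar. Each of the 4 alpha-cell genes lies above the limit on both mutant arrays, and each of the 6 a-cell genes lies below the limit on both wild-type arrays and on mutant array 2.

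The a-cell genes gave little signal in either strain. None of the 6 was above background on a wild-type array, against 40.6% of all spots on replicate 1 and 24.9% on replicate 2. On mutant replicate 1, 3 of the 6 were above it, against 61.2% of all spots. On mutant replicate 2 none of the 6 was, against 41.5% of all spots. None of the 6 was among the 2222 genes called bright here, out of 6051 genes and unnamed spots. Bright genes are those whose mean log2 level over the 4 arrays exceeds the mean background limit. That mean takes in both strains, and 3 of the 4 alpha-cell genes (not SAG1) passed it with wild-type values at or below their limits on at least 1 array. The strains overlapped for all of the a-cell genes but AGA2, which was above background on no array. At this signal a difference can be missed, and the wide intervals of these genes do not show that the strains are alike.

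For the a-factor genes, MFA1 (YDR461W) had deposited intensities of -2.47 and 1.14 in the wild type and 11.6 and -0.91 in the mutant. Its log2 difference was 0.57 (95% interval -3.57 to 4.72). MFA2 (YNL145W), the other a-factor gene, had -4.00 and 0.48 in the wild type and 1.74 and -2.93 in the mutant. The strains overlapped for both genes, and only MFA1 on mutant replicate 1 exceeded a limit. MFA2 differed by -0.85 (95% interval -3.00 to 1.30, log2). The 2 genes encode similar peptides, so their spots could share signal, which at these levels cannot be seen.

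STE2 (YFL026W) encodes the alpha-factor receptor and STE6 (YKL209C) the transporter that exports a-factor. Deposited intensities of STE2 were -0.35 and 8.82 in the wild type and 9.14 and 3.81 in the mutant. Those of STE6 were 0.04 and 0.91 in the wild type and 12.7 and -5.95 in the mutant. In both genes mutant replicate 1 was the one array above background, and the strains overlapped. The log2 differences were 0.62 (95% interval -3.54 to 4.78) for STE2 and 0.39 (95% interval -3.57 to 4.35) for STE6.

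BAR1 (YIL015W), the secreted protease with which a cells degrade alpha-factor, had deposited intensities of 3.005 and 3.31 in the wild type and 0 and 5.26 in the mutant. No array was above background for it, and its log2 difference was -1.16 (95% interval -4.16 to 1.83). AGA2 (YGL032C), the binding subunit of a-agglutinin, had -1.23 and -5.98 in the wild type and 4.05 and 6.32 in the mutant. It was the 1 a-cell gene that met the fold rule (16.7% of the 6, against 13.5% of all genes), yet no array exceeded its limit. The log2 difference of AGA2 was 2.07 (95% interval 0.24 to 3.89), with a limma adjusted p of 0.380, and 1.33 without mutant replicate 2. With a larger offset it was 0.82 and no longer met the fold rule. With both strains below background, the log2 difference of AGA2 depends on the offset and is not a measured fold. Limma's adjusted p for the other 5 a-cell genes ran up to 0.937.

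**Figure D2:**
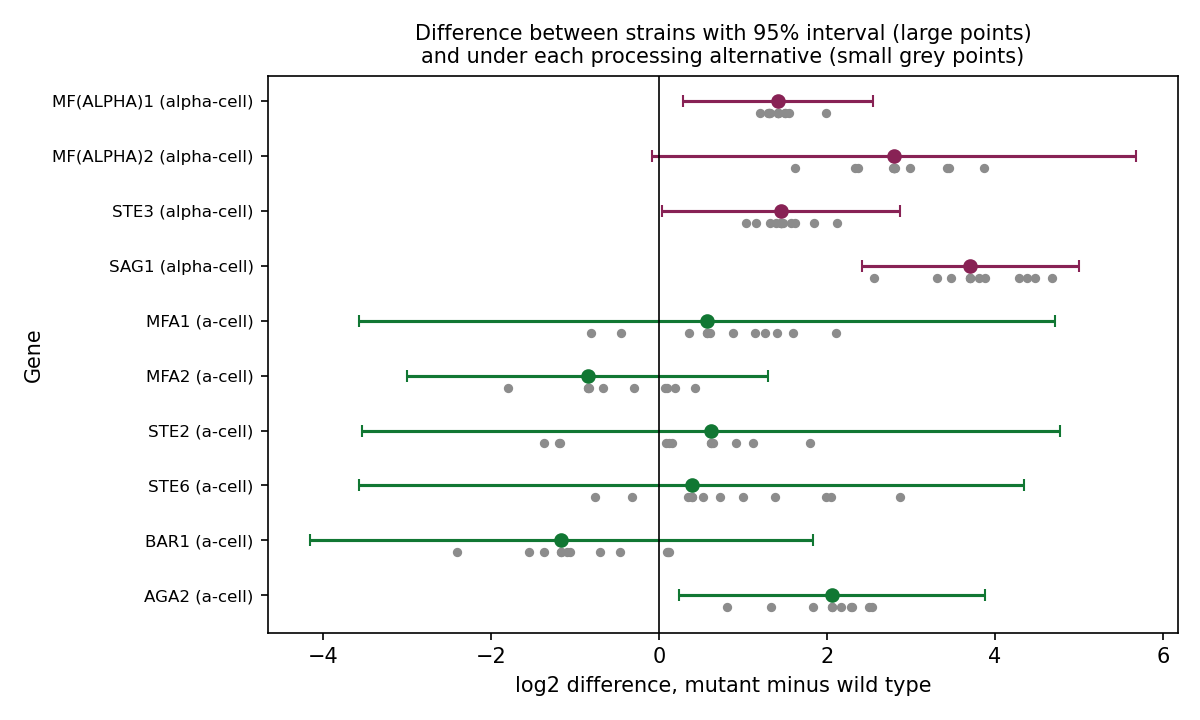
Log2 difference, mutant minus wild type (x axis), for each of the 10 genes (y axis). Large points are the fitted differences with limma's 95% intervals over 2 arrays per strain, and small grey points are the same difference under each processing alternative. The 4 alpha-cell genes lie between 1.42 and 3.71, with every alternative above 0, and the points of 5 of the 6 a-cell genes fall on both sides of 0.

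**Figure D3:**
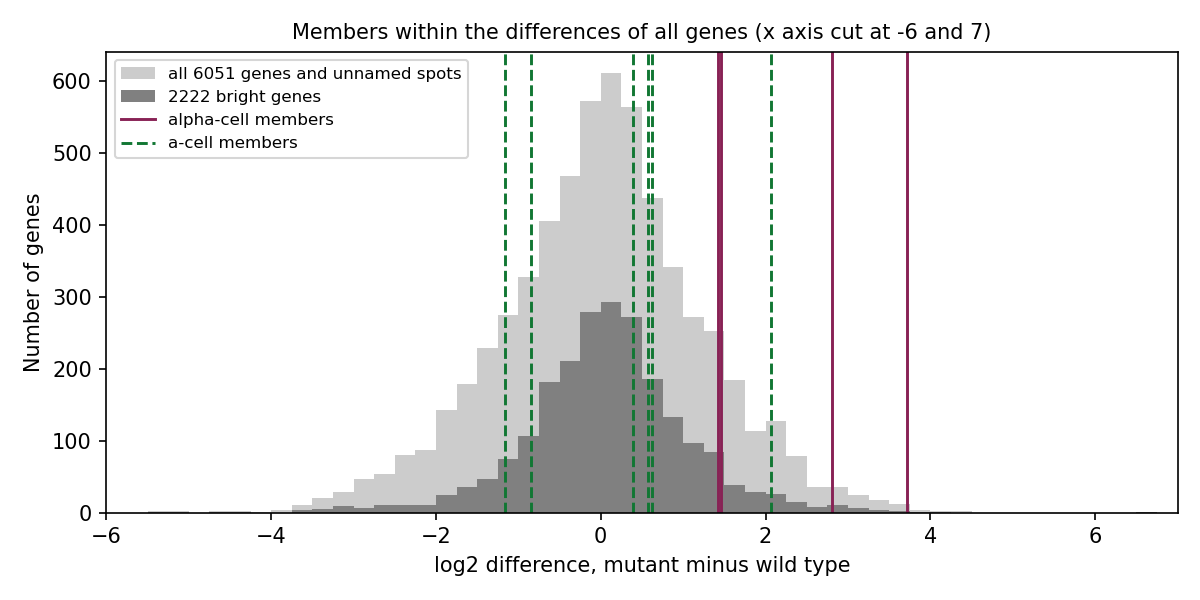
Histogram of the log2 difference, mutant minus wild type (x axis), over all 6051 genes and unnamed spots (light grey) and the 2222 bright genes (dark grey), with the number of genes on the y axis. Solid lines mark the alpha-cell genes, at 1.42, 1.45, 2.80 and 3.71, and dashed lines the a-cell genes, from -1.16 (BAR1) to 2.07 (AGA2).

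A further alpha-cell gene, AFB1 (YLR040C), encodes a barrier protein against a-factor and was named after its value was seen. Its deposited intensity was 98.7 and 189 in the wild type and 55.1 and 140 in the mutant, above background throughout and with overlapping strains. The log2 difference was -0.65 (95% interval -2.93 to 1.64), and median scaling made it -1.35, while leaving out mutant replicate 1 or 2 gave 0.24 or -1.57. ASG7 (YJL170C), a further a-cell gene, was above background on 1 array and differed by 0.75 (95% interval -0.92 to 2.41, log2).

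Of the 17 measured genes that regulate or silence the mating-type genes, 14 were bright, against 2222 of the 6051 genes and unnamed spots. Among the 17, the fold rule was met upward by 3 (17.6%, against 13.5% of all genes) and downward by 0 (12.8% of all genes), and the median log2 difference was -0.01. MATALPHA1 and MATALPHA2, which encode the alpha1 and alpha2 proteins and were named after their values were seen, were above background on all 4 arrays. Deposited intensities of MATALPHA1 were 21.97 and 24.2 in the wild type and 20.4 and 30.2 in the mutant. Its log2 difference was -0.49 (95% interval -1.94 to 0.97), or 0.10 without normalization. MATALPHA2 had 69.1 and 44.9 in the wild type and 60.3 and 51.2 in the mutant, with a log2 difference of -0.36 (95% interval -1.51 to 0.78). The strains overlapped for both genes on the deposited scale. After normalization they did not overlap for MATALPHA2, at 72.2 and 55.0 in the wild type and 50.4 and 47.2 in the mutant. The mutant lay lower without overlap for 1166 of the 6051 genes and unnamed spots.

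HMLALPHA1 and HMLALPHA2 are the silent copies of the same 2 genes, identical in coding sequence, so these spots and those of the MAT copies can share signal. HMLALPHA1 had deposited intensities of 16.9 and 16.9 in the wild type and 109 and 30.3 in the mutant. Its log2 difference of 1.27 (SE 0.79) satisfied the fold rule. The high value came from mutant replicate 1, and the difference was 0.35 without that array and 2.23 without mutant replicate 2. On that same array MATALPHA1 read 20.4, so the spots for the copies of alpha1 disagreed there. HMLALPHA2 differed by -0.20 (SE 0.41, log2). HMRA1, the silent copy of the a1 gene (chosen once its values were known), was not above background on any array, at -0.08 and -2.28 in the wild type and 3.57 and -2.93 in the mutant. MCM1, the cofactor of both alpha proteins, differed by 0.06 (SE 0.47, log2), a sign that turned with other scalings, to -1.12 with median scaling, -0.40 as deposited and -0.19 with cyclic loess.

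Of the other regulators, HO and ASH1 met the fold rule upward. HO, the endonuclease that starts mating-type switching, had deposited intensities of 13.6 and 17.8 in the wild type and 41.5 and 69.7 in the mutant. ASH1, a repressor of HO in daughter cells, had 47.4 and 29.4 in the wild type and 125 and 89.8 in the mutant. The strains did not overlap for either gene, as for 21.2% of all genes with the mutant higher. The log2 differences were 1.16 (SE 0.54) for HO and 1.18 (SE 0.43) for ASH1, with limma adjusted p-values of 0.553 and 0.450. HO reached 1.75 without mutant replicate 1 but fell short of 2-fold without wild-type replicate 1 (0.90) or mutant replicate 2 (0.68). ASH1 fell short of it with median scaling (0.76) or without wild-type replicate 2 (0.88).

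HO is also one of 8 haploid markers, genes that a/alpha diploids repress. All 8 were above background on at least 1 array, as were 4046 of the 6051 genes and unnamed spots. On all 4 arrays 3 of the 8 were above it, against 1233 of the 6051. The 3 were HO, RME1, a repressor of meiosis, and STE18, the gamma subunit of the pheromone G protein. The median log2 difference over the 8 was -0.01, and 2 (HO and GPA1) met the fold rule upward, or 25% against 13.5% of all genes. RME1 had deposited intensities of 67.9 and 70.7 in the wild type and 84.4 and 91.3 in the mutant, which is a log2 difference of 0.15 (SE 0.37), and STE18 differed by -0.20 (SE 0.46). With median scaling these became -0.38 for RME1 and -1.13 for STE18.

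The pheromone response pathway runs in both mating types from the receptors through a G protein and a kinase cascade to the activator Ste12. Of 19 signalling genes, 11 were on average higher in the mutant and 8 lower. The fold rule was met by 2 genes toward the mutant (10.5%, against 13.5% of all genes) and by 0 toward the wild type, and the median log2 difference was 0.14. The 2 were GPA1, the alpha subunit of the G protein, at 1.73 (SE 0.96), and FAR1, which arrests the cell cycle in response to pheromone, at 2.24 (SE 0.76). Deposited intensities of GPA1 were 3.27 and -2.81 in the wild type and 10.5 and 7.011 in the mutant, with mutant replicate 1 the one array above background. FAR1 was above background on no array. The log2 difference of GPA1 was 3.01 or 0.52 when wild-type replicate 1 or 2 was dropped, and that of FAR1 ran from 1.44 to 3.004 when single arrays were left out. STE12 was likewise not above background on any array and differed by -0.68 (SE 0.89).

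Among 13 measured mating effectors, genes that pheromone is known to induce, the fold rule was met upward by 2 (15.4%, against 13.5% of all genes) and downward by 0, and the median log2 difference was 0.19. These were FUS2 and KAR4, which act in cell and nuclear fusion. FUS2 was above background on no array and differed by 2.66 (SE 0.55, log2), or 1.16 with a larger offset. KAR4 was above it only on mutant replicate 1 and differed by 1.77 (SE 0.95), or 0.61 and 3.06 when wild-type replicate 1 or 2 was left out. Of the 5 bright effectors, FUS1, needed for cell fusion, and AGA1, the anchorage subunit of a-agglutinin, stayed just under the 2-fold threshold. AGA1 was named after its value was seen. The remaining bright effectors, FIG2, PRM4 and PRM5, differed by 0.19, 0.35 and -0.40 (log2). FUS1 had deposited intensities of 9.20 and 10.5 in the wild type and 25.0003 and 39.4 in the mutant. AGA1 had 13.8 and 11.7 in the wild type and 35.9 and 43.3 in the mutant. The strains did not overlap for FUS1 or AGA1, as for 21.2% of all genes with the mutant higher. Their log2 differences were 0.96 (SE 0.51) and 0.95 (SE 0.41). As deposited they were 1.58 and 1.56, where the median of all genes was 0.63.

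Of 9 genes that mature the pheromones, 1 met the fold rule upward (11.1%, against 13.5% of all genes) and 2 downward (22.2%, against 12.8%). STE13, the aminopeptidase that trims the alpha-factor precursor, was above background on both mutant arrays and neither wild-type array. Its deposited intensity was 0.49 and -2.30 in the wild type and 8.96 and 14.8 in the mutant, with a log2 difference of 2.71 (SE 0.64), which became 1.99 if wild-type replicate 2 was left out and 3.48 if mutant replicate 1 was. The STE13 difference was 1.41 with a larger offset and 4.94 with none. With the wild-type arrays taken as for STE3, the mutant mean of STE13 was not the higher one. STE24, a protease that processes the a-factor precursor and other farnesylated proteins, was above background on all 4 arrays. It had deposited intensities of 163 and 107 in the wild type and 73.8 and 64.3 in the mutant, a log2 difference of -1.09 (SE 0.43). That difference was under 2-fold as deposited (-0.93) and without wild-type replicate 1 (-0.80), and as deposited 0 of the 9 genes met the fold rule downward. RAM2, a farnesyltransferase subunit, was below background throughout and differed by -1.62 (SE 0.78), or -0.76 without mutant replicate 1 and -2.55 without mutant replicate 2.

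**Figure D4:**
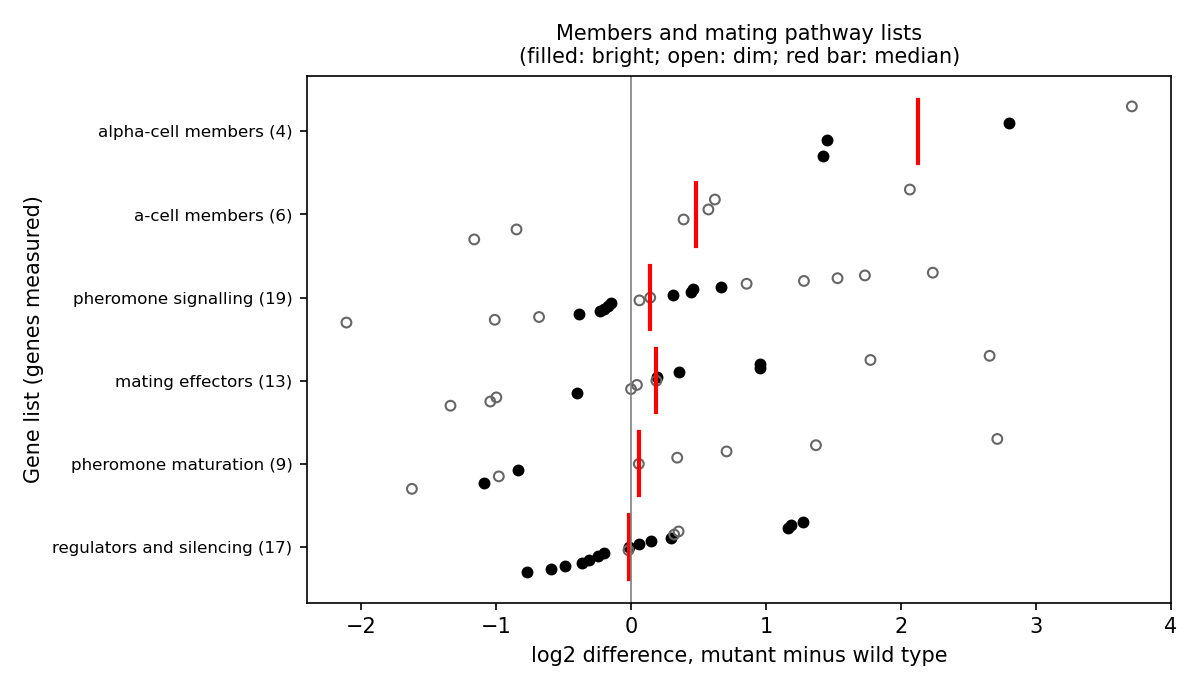
Log2 difference, mutant minus wild type (x axis), of each measured gene (points) in the alpha-cell and a-cell genes and in 4 lists of mating pathway genes (y axis), with filled points for bright genes, open points for dim genes and a red bar at the median of each list. The medians of the 4 pathway lists lie between -0.01 and 0.19, against 2.13 for the alpha-cell genes.

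The 10 genes are dispersed in the genome, and none is the next measured gene to another in the RefSeq gene order (assembly R64). The 8 nearest measured neighbours of the alpha-cell genes differed by a median of 0.01 (log2), from -1.36 for UIP4, beside MF(ALPHA)1, to 1.78 for LST4, beside STE3. Of these 8, 1 met the fold rule upward and 1 downward, near the 13.5% and 12.8% of all genes. No annotated gene overlaps any of the 10.

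The alpha-cell gene with the highest mean log2 level was MF(ALPHA)2. Among 1296 bright genes that varied by at least 1 log2 unit, the 3 closest to it in pattern were DIA1, RPL2A and YEF3, with distances over the 4 arrays of 0.39, 0.75 and 0.79 after each gene's own mean was subtracted. Pearson's r with MF(ALPHA)2 was 0.99, 0.98 and 0.99 over the same 4 arrays, which share one normalization. All 3 had their lowest value on wild-type replicate 2, as MF(ALPHA)2 did. They were picked for closeness on these same 4 arrays, so neither the r values nor the shared lowest array is a separate result. Of the a-cell genes STE2 had the highest mean, and its nearest genes were ZUO1, YML096W and IMD4, at distances of 0.96, 0.99 and 1.03. STE2 was above background on 1 array only, so its pattern is largely that of values within the noise.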

How the data were processed

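Total RNA had been copied with oligo(dT) and 33P-dCTP, 1 sample per array, per the labels. The deposited values are linear intensity values of 6084 spots. Their means (32.4 to 32.6) are nearly equal, so the authors' columns appear scaled; software, background method and array type are not named in the labels. Of the spots 5523 carry 1 symbol, 0 several and 561 none; all 5523 matched RefSeq gene identifiers, with 0 changes. Arrays were quantile-normalized (limma 3.58.1, R 4.3.3), values below 0 set to 0, an offset of 1.06 (5th percentile of the positive values) added, log2 taken and spots of a gene averaged. Intensities with an SD precede the offset. Noise SD per array came from the negative values. Strains were compared with limma, two-sided, on all 4 arrays, with Benjamini-Hochberg adjustment over 6051 genes and 2 residual degrees of freedom; an exact permutation of 2 against 2 cannot go below 0.333. The code was tested on simulated data. The number of arrays limits precision.

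The members and lists were chosen with earlier results of these data known. Named were all members, 3 genes nearest in pattern to the brightest member of each type, up to 4 genes past the fold rule in each pathway list, and GPA1, STE12, MCM1, FUS1 and HSF1. AFB1 had been listed with the a-cell genes by mistake. KAR3 was not matched. Alternatives covered normalization, offset, negative values, dim genes, spot choice, a replicate block and leaving out each array. Promoter motifs were not analysed here.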

Additional observations from a re-analysis of the deposited data

How the results depend on the processing

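Over the alternatives the alpha-cell genes differed by 1.04 to 4.68 (log2). The replicate block, the brightest spot and the bright-gene fit leave a member's difference as it is, and leaving out 1 array cannot turn the sign of genes whose strains do not overlap, so these say nothing of the direction. Under the other normalizations, offsets and treatments of negative values all 4 met the fold rule upward. As deposited, the median of all genes shifted to 0.63 and 28.1% of genes met the rule upward and 5.59% downward. The lowest and highest values without single arrays were 1.30 and 1.55 for MF(ALPHA)1, 1.62 and 3.87 for MF(ALPHA)2, 1.04 and 1.85 for STE3 and 3.31 and 4.38 for SAG1. No named gene passed an adjusted p of 0.05 under any alternative. The count of genes passing in limma was 0, with 710 at an unadjusted p under 0.05. It was 12 in the fit on bright genes only, where fewer genes were tested. The unadjusted p-values changed there too, with 411 bright genes under 0.05 against 245 in the main fit. Labels share replicate numbers, but nothing ties equal numbers together: the differences between replicates 1 and 2 of the strains correlated at 0.02 across genes, and the replicate block left 0 genes called and SAG1 at 3.71.

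The a-cell genes were not stable, with 14 of 68 values reversed, and the cause was not tested. From 1 upward and 0 downward past the fold rule, the counts became 2 and 1 both with no offset and with negative values left out (4 genes tested), 0 upward with the larger offset, and 1 to 3 upward and 0 to 3 downward without single arrays. With single arrays left out, MFA1 ran from -0.81 to 2.11, MFA2 from -1.80 to 0.10, STE2 from -1.18 to 1.80, STE6 from -0.77 to 2.05, BAR1 from -2.41 to 0.11 and AGA2 from 1.33 to 2.50. MFA2 was 0.43 as deposited, 0.19 with median scaling and 0.074 with cyclic loess. STE2 was -1.37 and BAR1 0.13 with no offset, and -1.18 and 0.10 with negative values left out.

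Of 366 values for the other 29 named genes 18 were counted as reversed, among them HMRA1 at 0 without mutant replicate 1. MCM1 was -0.40 as deposited, -1.12 with median scaling and -0.19 with cyclic loess. STE12 was 0.25 as deposited, 0.52 with no offset and 0.37 with negative values left out. MATALPHA1 was 0.10 as deposited and RME1 -0.38 with median scaling. With single arrays left out, MCM1 ran from -0.30 to 0.43, STE12 from -1.69 to 0.45, HMLALPHA2 from -0.47 to 0.062, HMRA1 from -0.27 to 0.96, AFB1 from -1.57 to 0.24, STE18 from -0.62 to 0.19, ZUO1 from -0.010 to 2.79 and IMD4 from -0.28 to 1.94. KAR4 and FUS2 ranged from 0.61 to 3.06 and 1.16 to 3.01 over the alternatives. HSF1 ranged from 3.67 to 9.03.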
